A study of Mus musculus with 19 samples.

Results

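Mammary glands carrying mutant p53 in fibroblasts (NP glands, n = 4) were compared with glands of wild-type mice (WT glands, n = 3) across all genes. These 7 libraries were chosen by the group in their sample records and are 7 of the 19 libraries of the series, which also holds tumors and N glands. NP mice had the genotype MMTV-neu;p53wm-R172H/+;Fsp-Cre, in which the MMTV promoter drives the neu oncogene in mammary epithelium and Fsp-Cre switches on 1 conditional R172H allele of *Trp53* in cells that use the Fsp (*S100a4*) promoter. By the study's methods the NP glands came from tumor-bearing mice of a mixed FVB, C57 and BALB/c background and held no malignant lesion, and the WT mice were age-matched. No age in weeks and no strain of the WT mice is given in the sources used here. The NP and WT groups therefore differed in the transgene, in Cre, in the *Trp53* allele and in the presence of a tumor at once, and these cannot be told apart. The N glands (n = 4), used below only to ask whether an NP value departs from other glands of neu mice, were MMTV-neu;Fsp-Cre (N gland 1) or MMTV-neu;p53wm-R172H/+ without Cre (N glands 2 to 4).

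The mammary gland is a tree of luminal and basal epithelium set in a pad of white adipocytes, with fibroblasts, vessels, nerves and immune cells. It lies under the skin over the muscles of the body wall, next to lymph nodes and, at some sites, to depots of brown fat. Skeletal muscle is marked by sarcomere proteins, which occur as fast-fiber and slow-fiber isoforms, and brown fat by the uncoupling protein *Ucp1*, with which it burns fuel for heat. All libraries were made from whole glands, so that a lower value of a cell type's genes can come from fewer such cells or from less RNA per cell, which cannot be told apart.

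Values are the deposited normalized counts, which are reads on a gene divided by 1 size factor per library. The reads recovered from them numbered 21467242 to 26888814 in the NP glands and 54677315 to 62645459 in the WT glands. The test was limma on log2(normalized count + 1), with p-values adjusted by Benjamini and Hochberg's method over all genes tested. A gene was called where its adjusted p-value was below 0.05 and its means differed 2-fold or more. All adjusted p-values below come from this test unless another tool is named. *Trp53* had 976, 581, 1135 and 483 normalized counts in NP glands 1 to 4 and 2297, 1243 and 2207 in WT glands 1 to 3. It was called lower (log2 fold change -1.31, standard error 0.36, adjusted p = 0.0216), and as both alleles are counted together it does not show the mutation. The change fell short of 2-fold without NP glands 2 and 4 (-0.81) and with NP gland 3 alone (-0.70). It was -0.16 with a score of skeletal muscle genes in the model. That score itself rises with the group, so this fit cannot separate muscle content from group. *Erbb2*, the mouse counterpart of neu, had 9969, 10787, 3985 and 3966 in the NP glands against 3826, 3855 and 4210, so that only NP glands 1 and 2 lay above the WT range (0.70, adjusted p = 0.187). *S100a4* had 53.4, 8.56, 43.3 and 33.6 against 1.71 to 4.65 and was called higher (2.78, adjusted p = 0.0113).

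Of 19065 genes tested, 3136 were called higher in NP glands (16.4%) and 3081 lower (16.2%), and the median log2 fold change of all genes was 0.02. For 54.4% of the genes every NP gland lay on the same side of every WT gland. The 10 largest rises among called genes without overlap were those of *Myh4*, *Ckm*, *Xirp2*, *Tnnc2*, *Acta1*, *Pvalb* and *Atp2a1*, which encode muscle proteins, of the adipocyte genes *Adipoq* and *Pck1*, and of the small Y RNA *Rny3*. They ranged from 11.14 to 14.66 on the log2 scale. The 10 largest falls were those of *Fosb*, *Egr1*, *Fos*, *Fosl1* and *Atf3*, which encode transcription factors, the cytokine *Il6*, and *Gm26802*, *Fam71a*, *C2cd4b* and *Gpr3*. They ranged from -6.36 to -11.08. *Gm26802* had 0 in every NP gland against 454 to 636 and was at least 133-fold lower, and the NP libraries held at most 3 reads each of *Fosl1* (at least 105-fold lower), *Fam71a* (at least 98.6-fold) and *Gpr3* (at least 75.6-fold), so that their fitted changes depend on the pseudocount. Of protein-coding genes on no list, the largest rises were those of *Klhl31*, *Eef1a2*, *Ces1d*, *Ces1f* and *Tmem45b*. *Klhl31* and *Eef1a2* followed the order of the muscle transcripts (2285, 17231, 36.8 and 11255 for *Klhl31*). The carboxylesterase *Ces1d* varied less than *Klhl31* over the NP glands (9512, 18913, 16394 and 37671 against 8.53 to 22.0 in the WT glands). Beside *Fam71a*, *C2cd4b*, *Gpr3* and *Il6*, the chemokine *Cxcl1* was among the largest falls (-6.20, adjusted p = 1.34e-04). *Rny3*, for which the WT libraries held at most 3 reads each, was at least 5133-fold higher, taking 3 reads per library as the floor.

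**Figure D1:**
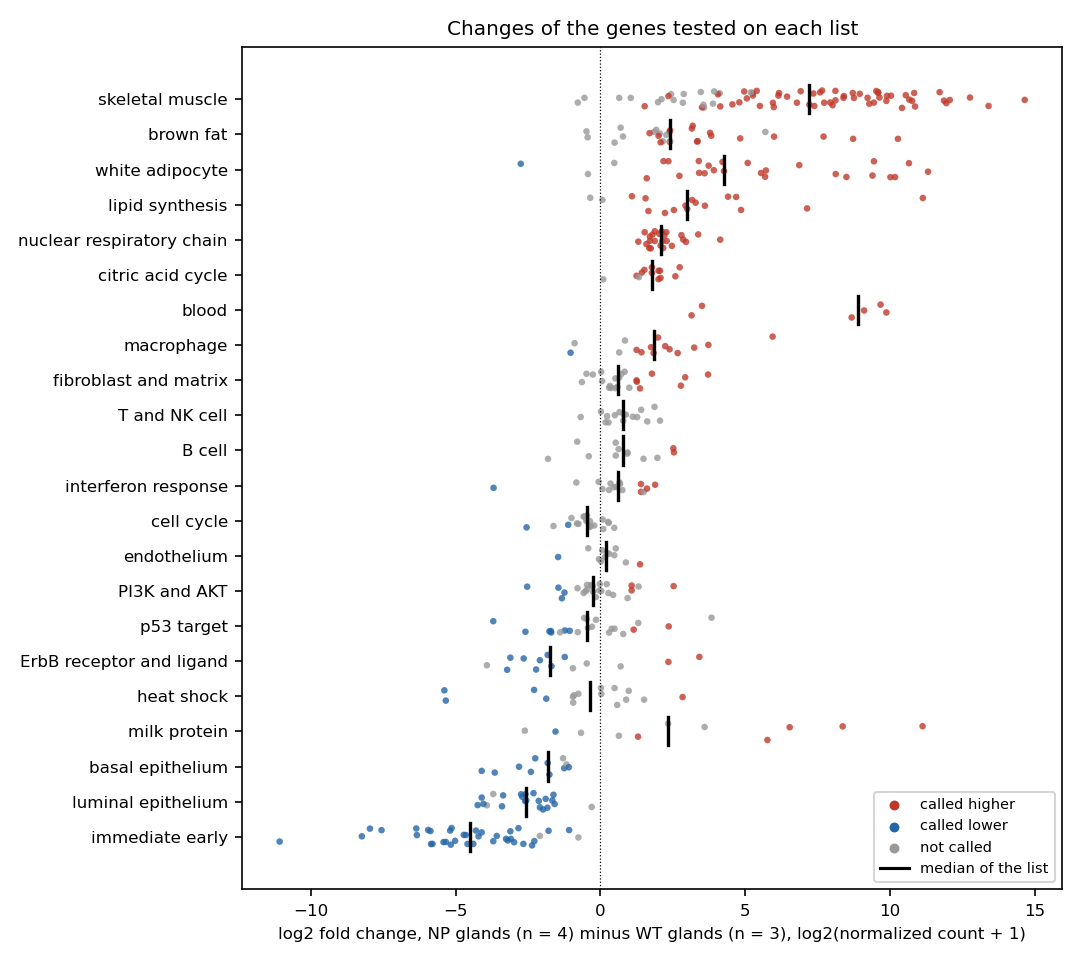
Log2 fold change of each tested gene between NP glands (n = 4) and WT glands (n = 3), on the log2(normalized count + 1) scale, for 22 gene lists. Red points were called higher, blue points lower and gray points not called, and black bars mark list medians, which run from -4.49 for immediate early genes to 8.90 for blood and 7.22 for skeletal muscle.

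Skeletal muscle transcripts were the most uneven feature of the NP glands. Genes of the muscle list held 4.26%, 22.5%, 0.18% and 13.2% of all reads in NP glands 1 to 4, between 0.031% and 0.036% in the WT glands, and 0.194%, 0.249%, 0.133% and 0.0475% in the N glands. NP glands 1, 2 and 4 lay far above every other gland, whereas NP gland 3 lay above the WT glands and within the range of the N glands. Of 79 listed genes 75 passed the filter on low values and 58 were called higher and 0 lower, against 16.4% of all genes tested that were called higher. Their median log2 fold change was 7.22 beside 0.02 for all genes. Of the 75, 33 had fewer than 10 normalized counts in every WT gland and so entered the test only through the NP glands. Among the 39 with at least 10 in every WT gland, 27 were called higher.

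The myosin heavy chains, the motors of the thick filament, were led by *Myh4* (ENSMUSG00000057003, fast type IIb). It had 136500, 1032705, 4721 and 465030 normalized counts in NP glands 1 to 4 and 2.13, 3.90 and 7.75 in the WT glands. NP gland 2 was the highest and NP gland 3 the lowest, yet all NP glands exceeded all WT glands (log2 fold change 14.66, standard error 1.69, adjusted p = 7.25e-04). The fast *Myh1* and *Myh2* rose by 9.60 and 8.76 (adjusted p = 0.00931 and 0.0123), and the developmental *Myh3* and *Myh8* by 3.51 and 2.35 (adjusted p = 0.0299 and 0.0247). Among the light chains, the fast *Mylpf* had 9929, 66421, 293 and 41939 against 3.62 to 8.79 (10.42, adjusted p = 0.00296). Of the thin filament, skeletal actin *Acta1* had 63040, 435922, 2007 and 241401 against 12.4 to 16.1 (11.95, adjusted p = 0.00159), and the fast troponins *Tnnc2*, *Tnni2* and *Tnnt3* rose by 12.07, 10.67 and 10.77. All of these except *Myh3* and *Myh8*, which were highest in gland 4, kept the order of glands 2, 4, 1 and 3 from high to low. Over the whole list 64 of 79 genes were highest in NP gland 2, 14 in gland 4, 1 in gland 1 and 0 in gland 3.

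Genes of the Z-disc and M-band, which anchor the filaments, numbered 16, and 14 of them were called higher, beside 16.4% of all genes. Titin, *Ttn*, alone took up 1.43%, 9.05%, 0.0636% and 5.26% of all reads in NP glands 1 to 4. *Xirp1* and *Ldb3* were not called (3.56 and 3.58, adjusted p = 0.118 and 0.0558). Both already had 74.2 to 77.6 and 255 to 371 normalized counts in WT glands. Of 15 genes of excitation and calcium handling 11 were called higher, among them the calcium pump *Atp2a1* (11.72), the calcium release channel *Ryr1* (9.88) and the calcium buffer *Pvalb* (11.87). Of 11 energy genes 9 were called higher (6, 6 and 5 without WT glands 1, 2 and 3, and 6 without NP gland 1, 2 or 4), among them the glycogen phosphorylase *Pygm* (5.26, adjusted p = 0.0358). Muscle creatine kinase, *Ckm* (ENSMUSG00000030399), had 36447, 261243, 1175 and 143794 in the NP glands and 1.46 to 2.98 in the WT glands (13.41, adjusted p = 0.00103).

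Components of the neuromuscular junction behaved less uniformly. Of 8 listed genes 6 were tested and 0 called by limma. Of the 5 also tested against N glands 4 had an unadjusted p-value under 0.05 in that comparison, as did 1950 of all 18563 genes. Acetylcholinesterase, *Ache*, had 190, 307, 124 and 235 normalized counts in the NP glands and 165, 363 and 441 in the WT glands, so the groups overlapped (-0.55, adjusted p = 0.317). The receptor subunit *Chrnb1* had 255, 568, 210 and 377 against 499 to 645, with overlap (-0.78, adjusted p = 0.0971). Without NP gland 2 *Chrnb1* was called lower (-1.04, adjusted p = 0.0196). Of the factors that drive myogenesis, *Myf6* had 192, 1302, 4.33 and 591 against 0 in every WT gland, at least 337-fold higher with the floor of 3 reads per library (adjusted p = 0.011). *Myog* had 20.03, 204, 2.17 and 163 against 0, at least 62.7-fold higher (adjusted p = 0.0183). *Myod1* had 21.9, 333, 0 and 141 against 0.488 to 2.07, with NP gland 3 at 0, and was not called (3.89, adjusted p = 0.117). *Pax7* and *Myf5*, which mark muscle stem cells, reached at most 22.8 and 27.1 and did not pass the filter.

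**Figure D2:**
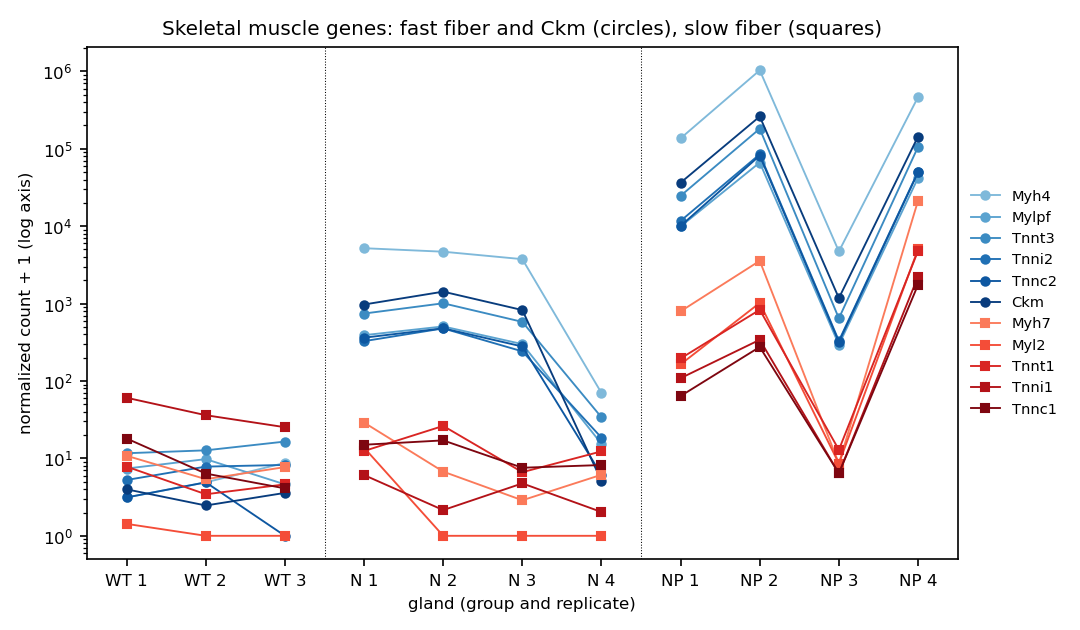
Normalized counts plus 1 (log axis) of 11 skeletal muscle genes in the 3 WT, 4 N and 4 NP glands, with blue circles for fast-fiber genes and *Ckm* and red squares for slow-fiber genes, and thin lines joining the values of 1 gene within a group. Fast-fiber genes were highest in NP gland 2, slow-fiber genes in NP gland 4, and *Myh4* in NP gland 3 (4721) lay within the range of the N glands (69 to 5192).

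The proportions of the muscle transcripts to one another were nearly fixed for many genes. Of 69 listed genes other than *Ckm* with more than 3 reads in every NP gland, 53 kept a ratio to *Ckm* that varied by at most 2-fold over NP glands 1, 2 and 4, and 33 did so over all NP glands. Likeness was measured as the root mean square difference of centered log2 values over the 4 NP glands. By it the genes most like *Ckm* were *Acta1* (0.02), *Pygm* (0.06), the potassium channel *Kcna7* (0.07), the ADP-ribosyltransferase *Art1* (0.08) and *Atp2a1* (0.08). They were taken from 752 tested genes that ranged over at least 16-fold among the NP glands, which was 3.94% of the genes tested. The same range was reached by 341 of the tested genes among the N glands and by 44 among the WT glands.

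Slow-fiber genes departed from this proportion. The slow myosin *Myh7* had 794, 3566, 7.58 and 21269 normalized counts in NP glands 1 to 4 against 4.39 to 9.81 in the WT glands, so that gland 4 exceeded gland 2 although it held fewer muscle reads in all, and gland 3 lay within the WT range (6.79, adjusted p = 0.0477). As a percentage of its fast counterpart *Myh4*, *Myh7* amounted to 0.581%, 0.345%, 0.161% and 4.57% in NP glands 1 to 4. The same comparison gave 1.64%, 1.53%, 2.58% and 12.0% for *Myl2* over *Mylpf*. For *Tnni1* over *Tnni2* it gave 0.921%, 0.4%, 1.65% and 4.43%, and for *Tnnc1* over *Tnnc2* 0.625%, 0.336%, 1.70% and 3.51%. In these pairs, and for *Tnnt1* over *Tnnt3* and *Myl3* over *Myl1*, NP gland 4 had the highest slow share, 6.42 to 13.2 times that of gland 2. This did not hold for *Casq2* over *Casq1* (7.54%, 1.73%, 36.4% and 6.36%) or *Myoz2* over *Myoz1* (7.68%, 6.15%, 17.6% and 13.9%), in which gland 3 had the highest share. Per length of the exons, *Myh7* was 0.331%, 0.191%, 0.104% and 2.17% of the sum of *Myh4*, *Myh1*, *Myh2* and *Myh7*. *Myh4* was 81.5%, 79.4%, 92.4% and 67.8% of that sum and *Myh1* 13.2%, 15.0%, 5.46% and 23.6%, so that the fast types made up nearly all of it in every gland. *Tnni1* and *Tnnc1* were not called (1.99 and 3.93, adjusted p = 0.375 and 0.0979). These shares come from 1 library per gland and carry no test.

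**Figure D3:**
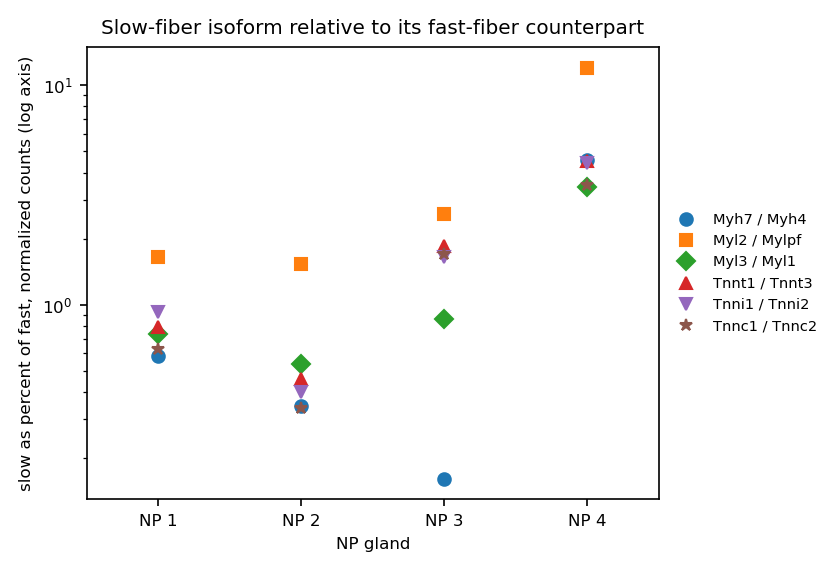
Normalized count of the slow-fiber isoform as a percentage of its fast-fiber counterpart (log axis) for 6 isoform pairs in NP glands 1 to 4, 1 point per pair and gland. In all 6 pairs the highest value is that of NP gland 4, for example 4.57% for *Myh7* over *Myh4* and 12.0% for *Myl2* over *Mylpf*.

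The upstream sequences of 2 of the leading muscle genes are shown because motifs bound by muscle regulators are common in this list. They were taken from the RefSeq promoters of GRCm38.p6 and end at the base before the annotated start. Capitals mark the E-box CAGCTG (which reads the same on both strands) and a CArG box, the motif bound by serum response factor.
Acta1 (chr8:123894776-123895025, minus strand): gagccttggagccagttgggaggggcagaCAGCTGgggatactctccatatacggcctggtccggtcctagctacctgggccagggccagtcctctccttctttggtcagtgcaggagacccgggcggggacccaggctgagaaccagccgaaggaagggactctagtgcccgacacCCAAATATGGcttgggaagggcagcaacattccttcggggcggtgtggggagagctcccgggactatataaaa
Myh4 (chr11:67237562-67237811, plus strand): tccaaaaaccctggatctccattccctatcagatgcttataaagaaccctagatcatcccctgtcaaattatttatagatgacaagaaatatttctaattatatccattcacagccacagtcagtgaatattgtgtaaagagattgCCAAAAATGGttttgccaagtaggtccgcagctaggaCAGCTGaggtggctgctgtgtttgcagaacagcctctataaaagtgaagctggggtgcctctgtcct
Of the muscle list 55 genes had a promoter in this table, and 23 of them (41.8%) held CAGCTG in at least 1 window of 250 bases, beside 14.7% of all 27025 genes with a promoter. The CArG box was found in 5 (9.09%), beside 1.62% of all. These are matches of letters and not evidence of binding.

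When NP gland 3, the gland with the least muscle RNA, was compared alone with the WT glands, 42 of the 75 muscle genes were called higher and 3 lower, against 15% of all genes called higher in that fit, in which the lone gland is assumed to vary like the WT glands. Without NP glands 2 and 4, 41 of 62 were called higher and 1 lower, against 18.7% of all genes. Against the N glands, 0 of 68 tested muscle genes were called by limma, which called 0 of 18563 genes in that comparison, and 65 of the 68 had an unadjusted p-value under 0.05 (1950 of all genes did). DESeq2 on the recovered reads called 73 of the muscle genes higher there, of 536 genes called higher in all (2.63%). Without NP gland 3, 71 of 75 were called higher against the WT glands, beside 17.7% of all genes. Calls of several low or uneven members rested on single libraries. *Pygm* lost its call without any 1 gland other than NP gland 3 (adjusted p up to 0.0997), *Myh7*, *Myh3*, *Myl3*, *Myog* and *Abra* without any 1 WT gland (up to 0.126), *Myh8* and *Tnnt1* without any 1 WT gland or NP gland 2 (up to 0.0871), *Lmod2* without WT gland 1 or 2 (up to 0.0566), and *Myoz2* without WT gland 1 or 3 (up to 0.0593). *Xirp1*, *Ldb3*, *Kcna7*, *Myod1*, *Casq2*, *Tnni1* and *Tnnc1* were not called by limma with all glands but were when NP gland 3 was left out (3.37 to 5.79, adjusted p up to 0.0305). DESeq2 called all 7 of them higher, and edgeR all but *Tnni1*.

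Brown fat transcripts stood out in a different gland. The genes that define brown adipocytes held 0.0298%, 0.00416%, 0.0159% and 0.237% of reads in NP glands 1 to 4 and 0.00399% to 0.00515% in the WT glands, so that gland 4 was the highest and gland 2 lay within the WT range. *Ucp1* (ENSMUSG00000031710, chromosome 8, 83290352 to 83298452 of GRCm38) had 1967, 2.86, 480 and 56926 normalized counts in NP glands 1 to 4 and 10.2 to 13.9 in the WT glands. Gland 4 exceeded gland 1, the next, by 4.85 on the log2 scale, and gland 2 was below every WT gland. With this spread the difference between the groups was not called (5.70, standard error 2.79, adjusted p = 0.13). edgeR on the same 7 libraries called it higher (10.31, adjusted p = 0.0297). limma did so without NP gland 2 (8.19, adjusted p = 0.00863) and without NP glands 2 and 4 (6.23, adjusted p = 3.67e-04), both of which drop the lowest NP gland. Of the 7 limma fits that left out 1 library, only that without NP gland 2 called *Ucp1*. The gene was also not called with a replicate block or with all gland groups in 1 fit, and DESeq2 gave no adjusted p-value for it. With NP gland 3 alone its log2 fold change was 5.21. In the N glands *Ucp1* had 24.2, 783, 86.4 and 813, and the defining genes held 0.0107%, 0.0205%, 0.0137% and 0.0198% of reads.

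Of the 31 brown fat genes 29 were tested, and 17 were called higher and 0 lower, beside 16.4% and 16.2% of all genes. Of the 29, 4 had fewer than 10 normalized counts in every WT gland, and of the 22 with at least 10 in every WT gland 10 were called higher. Among the 13 defining genes, 11 were tested and 4 called higher, *Cidea* (4.83, adjusted p = 0.0328), *Otop1* (3.79, adjusted p = 0.0426), *Lhx8* (2.01, adjusted p = 0.0238) and *Ebf2* (1.70, adjusted p = 0.00848). *Cidea*, a lipid droplet protein, had 1224, 55.7, 403 and 9003 against 17.5 to 32.7, and all NP glands exceeded all WT glands. *Dio2*, which makes active thyroid hormone in brown fat, had 138, 117, 258 and 4296 against 70.3 to 100, again with gland 4 far above the others (2.16, adjusted p = 0.168). *Elovl3* had 27.7, 0, 3.25 and 1774 and *Zic1* 0.954, 0, 0 and 43.9. Both did not pass the filter, since only gland 4 held more than a few reads of *Zic1*. Of the 13 defining genes 12 were highest in NP gland 4 and 10 were lowest in NP gland 2, counting *Zic1*, which was at 0 in gland 3 as well. The exception to the first was *Epsti1*, with 1298, 117, 1115 and 121 (0.49, adjusted p = 0.697), and *Prdm16* did not separate the groups (307, 127, 321 and 363 against 332 to 430). A rise over the WT glands was not particular to NP glands. In N against WT, which uses the same WT glands, 20 of 29 brown fat genes were called higher and 1 lower (median 1.92). Of the defining genes 9 of 12 were called higher there (median 2.02), beside 19.1% of all genes.

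Of 10 brown fat genes that muscle or heart also use, 8 were called higher (6, 6 and 4 without WT glands 1, 2 and 3), beside 16.4% of all genes. *Cox8b*, a subunit of cytochrome oxidase, had 1110, 2679, 545 and 8396 against 0 to 0.976, at least 2053-fold higher (adjusted p = 2.48e-04). *Cox7a1* had 474, 1857, 79.1 and 3671 against 7.81 to 12.8 (adjusted p = 0.0061), and the fatty acid binding protein *Fabp3* 1343, 2554, 558 and 8022 against 7.23 to 9.27 (7.71, adjusted p = 5.03e-04). In these, gland 2 with its muscle transcripts came second after gland 4, unlike in *Ucp1* and *Cidea*. Of 8 adrenergic and lipid genes 5 were called higher, led by the adrenergic receptor *Adrb3* (8.73, adjusted p = 5.68e-05), which white adipocytes also carry. The glycerol kinase *Gk* had 535, 263, 507 and 7561 against 454 to 605, so that gland 4 lay above the WT range and gland 2 below it. The genes most like *Ucp1* over the 4 NP glands were *Cidea* (2.38), *AF067061* (2.61), *Gm9899* (2.77), *Cyp2b10* (2.77) and *Otop1* (2.90), and none was as close as the muscle genes were to *Ckm*. Without NP gland 4, 19 of the 29 brown fat genes were called higher, beside 14.5% of all genes, with a median of 1.82 in place of 2.40. The count fell to 12, 12 and 9 without WT glands 1, 2 and 3, and that of the defining genes from 4 to 1, 2 and 1, and to 2 without NP gland 1. *Cidea* lost its call without any 1 WT gland or NP gland 1 (adjusted p up to 0.0993), *Otop1* also without NP gland 3 (up to 0.13), and *Lhx8* without WT gland 1 or 3 or NP gland 2 (up to 0.0912). Against the N glands limma called 0 of the brown fat genes. DESeq2 called 7 of them higher there, 1 of these a defining gene, beside 2.63% of all genes.

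**Figure D4:**
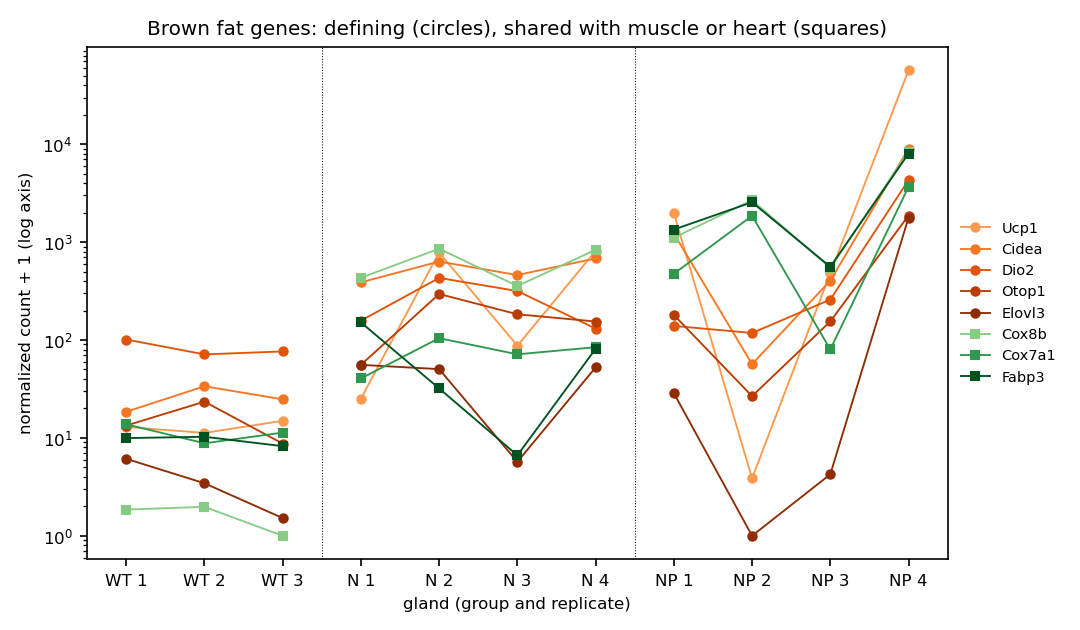
Normalized counts plus 1 (log axis) of 5 genes that define brown fat (orange circles) and 3 that muscle or heart also use (green squares) in WT, N and NP glands, with thin lines joining the values of 1 gene within a group. NP gland 4 was highest for all 8 genes, and NP gland 2 was low for *Ucp1* (2.86) but second for *Cox8b* (2679).

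White adipocyte genes rose in every NP gland. The list held 1.55%, 1.68%, 2.19% and 2.81% of reads in NP glands 1 to 4 and 0.1% to 0.108% in the WT glands. Of 27 genes 24 were called higher and 1 lower, with a median of 4.27, beside 16.4% and 16.2% of all genes. Adiponectin, *Adipoq* (ENSMUSG00000022878), had 14468, 23459, 21051 and 38749 against 1.71, 23.4 and 9.82 (11.32, adjusted p = 8.14e-05), and the lipid droplet coat protein *Plin1* 6422, 9621, 12394 and 18105 against 7.68 to 22.0 (9.45, adjusted p = 2.63e-05). Leptin, *Lep*, had 1377, 9355, 6783 and 3236 against 7.68 to 15.1 (8.50, adjusted p = 1.59e-04). The adipocyte regulator *Pparg* rose by 3.92 (adjusted p = 5.23e-04), while *Cebpb*, an early regulator that is also induced by stress, was the gene called lower (-2.75, adjusted p = 9.06e-04). *Sfrp5* and *Irs1* were not called (0.48 and -0.43). Of 17 lipid synthesis genes 15 were called higher, among them fatty acid synthase *Fasn* (27830, 98285, 160798 and 112724 against 7695 to 12272, adjusted p = 0.00495) and the desaturase *Scd1* (4.41, adjusted p = 0.00296). In N against WT, which uses the same WT glands, 24 of 27 adipocyte genes were called higher and 1 lower with a median of 5.42, and 16 of 17 lipid synthesis genes higher with 4.17, beside 19.1% and 17.9% of all genes called higher and lower. Between NP and N glands limma called 0 genes of either list, and 10 of 27 and 10 of 17 had an unadjusted p-value under 0.05, beside 1950 of all 18563 genes. DESeq2 called 1 adipocyte gene and 7 lipid synthesis genes lower in NP glands, beside 0.579% of all genes.

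Epithelial genes were lower. Of 22 luminal genes 0 were called higher and 19 lower (median -2.57), against 16.2% of all genes called lower, and of 11 basal genes 9 were called lower (median -1.82). In N against WT, 20 of the 22 luminal genes (median -2.29) and 9 of the 11 basal genes (median -1.95) were called lower, beside 17.9% of all genes. The luminal regulator *Foxa1* had 256, 394, 145 and 142 normalized counts in NP glands and 3646, 5038 and 3606 in WT glands without overlap (-4.24, adjusted p = 2.79e-04). The progesterone receptor *Pgr* had 391, 1425, 259 and 163 against 3567 to 8943 (-4.04, adjusted p = 0.00394), whereas the estrogen receptor *Esr1* overlapped (-0.30, adjusted p = 0.422). The basal keratin *Krt14* had 988, 965, 1329 and 391 against 9047 to 12949 (-3.65, adjusted p = 5.91e-04). NP gland 4 was the lowest of its group in reads of both lists (0.064% luminal and 0.0332% basal, against at least 0.756% and 0.257% in WT glands).

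Milk protein genes did not follow the other epithelial genes. Of 11 listed, 5 were called higher and 1 lower, beside 16.4% and 16.2% of all genes. Of these 11, 3 had fewer than 10 normalized counts in every WT gland, and of the 7 with at least 10 in every WT gland 3 were called higher. The caseins *Csn1s1*, *Csn1s2a* and *Csn2* rose by 5.77, 11.13 and 6.54 (adjusted p = 0.00424, 6.08e-04 and 0.00531), and *Csn2* had 9575, 3043, 16200 and 416 against 12.7 to 75.9. Whey acidic protein, *Wap*, had 1195, 107, 9490 and 54.2 against 0 to 0.976, at least 1749-fold higher (adjusted p = 0.0061). NP gland 3 was the highest and NP gland 4 the lowest for *Csn1s1*, *Csn2* and *Wap*. In the N glands *Csn2* had 21765, 133, 945 and 300, so that single glands of neu mice differed as widely. *Mfge8*, which coats milk fat globules, was called lower (-1.55, adjusted p = 0.0118).

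Fibroblast and matrix genes, which mark the cell type that the model targets, rose in part. Of 22 listed genes 7 were called higher and 0 lower, with a median of 0.62, beside 16.4% and 16.2% of all genes. The rise was not particular to NP glands. In N against WT, which uses the same WT glands, 15 of the 22 were called higher and 0 lower (median 1.59). The shares of all genes there were 19.1% and 17.9%. *Dpt*, a matrix protein of resident fibroblasts, had 4896, 7437, 8947 and 8803 normalized counts in NP glands 1 to 4 against 310 to 853 in the WT glands, without overlap (3.72, adjusted p = 4.24e-04). *Pi16*, which marks progenitor-like fibroblasts, had 1271, 4134, 2029 and 3446 against 259 to 492 (2.93, adjusted p = 0.00203), and *Fap*, a surface protease of activated fibroblasts, 847, 886, 838 and 1087 against 205 to 373 (1.78, adjusted p = 0.0011). Fibronectin, *Fn1*, decorin, *Dcn*, and tenascin, *Tnxb*, were also called higher (1.25, 1.37 and 1.26). The fibrillar collagens were not, as *Col1a1* had 5187, 6001, 18480 and 4926 against 8057 to 14499, with NP gland 3 above and the other NP glands below the WT range (-0.64, adjusted p = 0.304). Without NP gland 3 it was called lower (-1.09, adjusted p = 0.0101). Between NP and N glands limma called 0 of the 22 genes, of which 13 had an unadjusted p-value under 0.05, beside 1950 of all 18563 genes. DESeq2 called 8 of the 22 lower in NP glands, beside 0.579% of all genes.

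Immediate early genes, which are switched on within minutes by growth factors, stress or tissue handling, were far lower in the NP glands than in the WT glands. The 38 listed genes held 0.0535% to 0.143% of reads in NP glands and 2.02% to 2.66% in WT glands. Of the 38, 36 were called lower and 0 higher (median -4.49), beside 16.2% and 16.4% of all genes. All NP values lay below all WT values for 37, beside 27.9% of all genes. *Fosb* (ENSMUSG00000003545) had 30.5, 17.1, 56.3 and 21.9 normalized counts against 50326, 72723 and 70243 (-11.08, standard error 0.38, adjusted p = 1.31e-05). *Fos* had 280, 605, 512 and 222 against 81338, 99730 and 100009 (-7.96, adjusted p = 2.30e-05). All 8 AP-1 genes and all 7 genes of the EGR and NR4A families were called lower, and *Egr4* had 0 in every NP gland against 47.0 to 60.6, at least 12.8-fold lower. Of the feedback genes, which shut the response down, 13 of 15 were called lower, among them *Socs3* (-5.87) and *Zfp36* (-5.19). *Dusp2* and *Gadd45g* were not called (-2.09 and -0.76, adjusted p = 0.0986 and 0.104). *Dusp2* was called lower without NP gland 1 or 3 (adjusted p = 0.0481 and 0.0422), and *Gadd45g* without NP gland 2 (adjusted p = 0.0298). The fall of this list was not particular to NP glands. In N against WT, which uses the same WT glands, 38 of 38 were called lower (median -4.42), beside 17.9% of all genes. The list held 0.0744%, 0.116%, 0.109% and 0.0853% of reads in N glands 1 to 4.

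Upstream sequences of 2 of these genes show motifs through which such genes are known to respond, with the cAMP response element TGACGTCA (the same on both strands) or CArG boxes in capitals, from the same RefSeq table.
Dusp1 (chr17:26508473-26508672, minus strand): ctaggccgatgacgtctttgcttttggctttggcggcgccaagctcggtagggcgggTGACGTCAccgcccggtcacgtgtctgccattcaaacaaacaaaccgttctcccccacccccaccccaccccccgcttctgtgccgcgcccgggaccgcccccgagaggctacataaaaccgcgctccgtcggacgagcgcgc
Srf (chr17:46556163-46556312, minus strand): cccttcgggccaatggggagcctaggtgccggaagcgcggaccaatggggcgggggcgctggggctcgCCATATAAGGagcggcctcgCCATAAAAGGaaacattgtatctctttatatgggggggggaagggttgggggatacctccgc
*Dusp1*, a phosphatase of MAP kinases, had 650, 1743, 1076 and 949 against 10758 to 14487 (-3.58, adjusted p = 2.69e-04), and *Srf*, the factor that binds CArG boxes, 1004, 1453, 1396 and 1018 against 2404 to 2715 (-1.08, adjusted p = 0.00265). Of the 30 immediate early genes with a promoter in the table, 4 (13.3%) held a CArG box and 3 (10%) the cAMP response element, beside 1.62% and 1.77% of all genes.

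The inducible heat shock genes were also lower. *Hspa1a* had 132, 521, 192 and 191.1 against 6393 to 12373 (-5.39, adjusted p = 2.65e-04) and *Dnajb1* fell by 2.29 on the log2 scale (adjusted p = 1.81e-04), but *Hspa8* and *Hsp90ab1* had log2 fold changes of 0.03 and 0.02. *Hspa1a* and *Hspa1b* are near-identical copies, between which reads may be split. Of 16 heat shock genes 4 were called lower and 1 higher, beside 16.2% and 16.4% of all genes. Without NP gland 2, 6 were called lower, and without NP gland 3, 3 were called higher. The count of higher genes was 0 without any 1 WT gland or NP gland 2 or 4. The gene called higher was *Cryab*, a small heat shock protein abundant in muscle, with 1512, 9922, 507 and 6805 against 356 to 383 (2.84, adjusted p = 0.0452), in the order of the muscle transcripts. In N against WT, 6 of the 16 were called lower and 1 higher (median -0.51), beside 17.9% and 19.1% of all genes.

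Nuclear genes of the respiratory chain rose in all NP glands, and most in gland 4. All 24 tested genes were called higher, beside 16.4% of all genes, and 23 of the 24 were highest in NP gland 4. *Ndufa5* of complex I had 791, 1961, 556 and 2767 against 55.6 to 79.6 (4.14, adjusted p = 0.00127). The count of calls depended on the WT glands, being 13, 11 and 15 without WT glands 1, 2 and 3. It was 1 once a score of the muscle genes, their mean log2 value, entered the model. The median of the muscle list lay 2.39 to 9.87 above the WT mean in the NP glands. The score thus rises with the group, and a fit that holds both cannot separate them. In NP gland 3 alone against WT, 15 of 24 were called higher, with a median of 1.19. Of 13 citric acid cycle genes 11 were called higher, beside the same 16.4%. This count was 5, 3 and 7 without WT glands 1, 2 and 3, 7 without NP gland 2, and 0 with the muscle score in the model. In N against WT, 21 of 24 respiratory chain genes were called higher (median 1.54). Of the 13 citric acid cycle genes 9 were called higher and 1 lower there. The shares of all genes were 19.1% and 17.9%. Mitochondrial ribosomal RNA held 2.02% to 11.6% of reads in NP glands, highest in gland 4, and 0.0141% to 0.0628% in WT glands. *mt-Nd3* was called lower (8.58, 24.3, 4.33 and 90.4 against 781 to 1024, -5.55, adjusted p = 0.0026), while *mt-Co1* was called higher (2.07, adjusted p = 0.0336).

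All 6 genes of red blood cells were called higher, beside 16.4% of all genes. Of these, 4 had fewer than 10 normalized counts in every WT gland and so were tested only through the NP glands. The globin *Hbb-bs* had 5437, 6158, 8090 and 8514 against 9.27 to 14.5 (9.11, adjusted p = 7.54e-06), and *Hba-a2* was at least 811-fold higher. These paralogs share sequence, and reads may be split between them. NP glands varied little here, in contrast to the muscle genes, and the N glands had 11288 to 18686 of *Hbb-bs*. The WT glands also differed in RNA classes, with 14.4% to 16.5% of reads on long intergenic noncoding RNA genes against 1.84% to 5.67% in NP glands. One of these, *Gm26917*, alone held 9.81% to 11.5% in WT glands and 0.365% to 3.43% in NP glands. The WT libraries were also deeper than every NP library, and with their reads thinned to the depth of the NP glands 3102 genes were called higher and 3020 lower, in place of 3136 and 3081. The part of tissue handling and library preparation was not tested.

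Most macrophage genes were called higher in the NP glands, whereas T and NK cell genes divided the NP glands into pairs. Of 15 macrophage genes 11 were called higher and 1, *Cd14*, lower (median 1.84), beside 16.4% and 16.2% of all genes. In N against WT, 12 of the 15 were called higher and 1 lower (median 2.51), beside 19.1% and 17.9% of all genes. The scavenger receptor *Cd163* had 2205, 2338, 2154 and 3530 in the NP glands against 28.9 to 52.7 in the WT glands (5.95, adjusted p = 2.30e-05). Of 16 T and NK cell genes 0 were called by limma, while *Cd3e*, part of the T cell receptor complex, had 510, 51.4, 488 and 54.2 against 91.5, 148 and 199. NP glands 1 and 3 thus lay above the WT range and NP glands 2 and 4 below it. The median difference of the T and NK list from the WT mean was 2.60, -0.75, 2.83 and -0.68 in NP glands 1 to 4, and that of the cell cycle list 0.75, -1.29, 0.84 and -1.94. The proliferation marker *Mki67* had 4152, 722, 4030 and 526 against 1008 to 1915. NP glands 2 and 4, with few T and NK cell transcripts, were those with the most muscle transcripts. The median difference of the B cell list was 2.09, -2.57, 2.94 and 0.70 in NP glands 1 to 4, so that gland 4 was not low in it. Of the 12 B cell genes only *Jchain* and *Mzb1*, which plasma cells express, were called, both higher (2.52 and 2.54, adjusted p = 0.0213 and 0.0386). This was 2 of 12, beside 16.4% of all genes called higher. Without NP gland 2, 7 of the 12 were called higher. Without NP glands 2 and 4 it was 11, and 14 of the 16 T and NK cell genes, beside 18.7% of all genes. *Mzb1* lost its call without any 1 WT gland or NP gland 1 or 3 (up to 0.127), *Jchain* without WT gland 1 or 2 (up to 0.0791), and *Cd14* without WT gland 1 or 2 or NP gland 4 (up to 0.08).

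**Figure D5:**
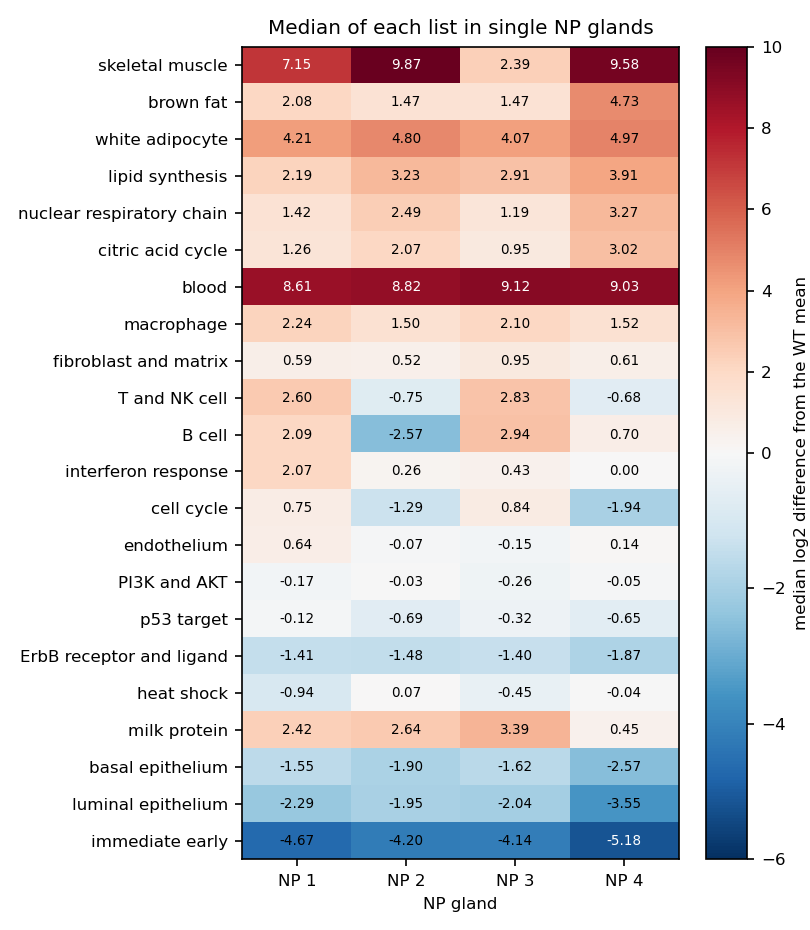
Median difference from the WT mean, on the log2(normalized count + 1) scale, over the tested genes of each list in NP glands 1 to 4. The skeletal muscle row runs from 2.39 in gland 3 to 9.87 in gland 2, the T and NK cell and cell cycle rows are positive in glands 1 and 3 and negative in glands 2 and 4, and the blood and immediate early rows differ little between glands.

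Each NP gland had its own outlying genes, given here as a description. NP gland 1 stood above the other 3 in the neutrophil granule genes *Ngp* (1154 against 1.29 to 8.56) and *Mpo* (402 against 1.08 to 2.86), in *S100a8* and *S100a9*, of which the WT glands also held some (2.93 to 71.7 of *Ngp*), and in the immunoglobulin constant genes *Ighg1* (41061 against 431 to 1524) and *Ighg2c*. All 16 tested interferon response genes were also highest there among the NP glands. Their list median was 2.07 above the WT mean, against 0.00 to 0.43 in the other NP glands. This was not particular to NP gland 1. The list held 0.0432% of its reads, and 0.0527%, 0.025%, 0.0181% and 0.0491% in N glands 1 to 4. In N against WT, 11 of the 16 were called higher (median 1.58), beside 19.1% of all genes. NP gland 2 stood above in *Sprr1a* and *Krt6a*, which mark stressed squamous epithelium, in *Muc13*, and in *Areg* (1086 against 14.2 to 152), a ligand of the EGF receptor, although the WT glands had 586 to 5040 of it. NP gland 3 stood above in the immunoglobulin segment *Ighv12-3* (5176 against 2.86 to 108), in the acute phase gene *Saa3* (3287 against 11.4 to 72.3) and in *Csn1s2b* and *Wap*, and below in the muscle genes *Csrp3*, *Lmod2*, *Myot* and *Abra*. Among the 10 genes in which NP gland 4 most exceeded the others, *Ucp1*, *Cidea*, *Dio2*, *Otop1*, *S100b* and *Gk* were on the brown fat list. *Myh6* and *Tnni1*, also among the 10, belong to slow or cardiac muscle. The small nuclear RNA *Gm22513* was low in gland 4 (262 against 59602 to 114751), as in the WT glands (672 to 1075).

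Genes that bear on the mouse model went both ways. Of 22 p53 target genes 2 were called higher and 7 lower (median -0.45), beside 16.4% and 16.2% of all genes. These counts were 1 and 6, 1 and 5, and 1 and 4 without WT glands 1, 2 and 3, 3 and 8 without NP gland 1, 4 and 7 without NP gland 3, and 1 and 7 without NP gland 4. The cell cycle inhibitor *Cdkn1a* had 236, 537, 571 and 762 against 1044 to 2056 (-1.71, adjusted p = 0.0141) and *Mdm2*, the inhibitor of p53, was not called (-0.29, adjusted p = 0.186). *Ccng1* was called higher (2.36, adjusted p = 0.0281), with 5664, 25575, 3049 and 18136 in the order of the muscle transcripts, and *Btg2*, called lower, is also on the immediate early list. Of 14 ErbB receptors and ligands 8 were called lower and 2 higher (median -1.76), beside 16.2% and 16.4% of all genes. The count of lower genes was 5 without WT gland 1 and 2 with the muscle score in the model, a score that itself rises with the group. *Erbb3* and *Erbb4* fell by 2.09 and 1.69 on the log2 scale (adjusted p = 0.00242 and 0.0018), and *Egf* rose (3.42, adjusted p = 0.0114), with 440, 1727, 154 and 1395 in the NP glands. Of 25 PI3K and AKT genes 3 were called higher and 4 lower (median -0.25), beside 16.4% and 16.2% of all genes. The count of higher genes was 1 without any 1 WT gland or NP gland 4, and 2 without NP gland 1. In N against WT glands these lists gave much the same counts. There 2 p53 targets were called higher and 7 lower (median -0.46), beside 19.1% and 17.9% of all genes. Of the ErbB list 2 were called higher and 7 lower (median -1.71), and of the PI3K and AKT list 3 and 4 (median -0.09). Between NP and N glands limma called 0 genes of these lists. DESeq2 called 1 p53 target and 1 ErbB gene higher in NP glands, beside 2.63% of all genes.

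Of 14 genes for secreted proteins taken from those the study singled out between NP and N glands, 13 were tested. Of these, 8 were called higher (median 2.55), beside 16.4% of all genes. The study chose this list on these samples, and it is therefore not independent evidence. *Saa1* had 55.3, 21.4, 201.5 and 9.04 against 0.426 to 0.517, at least 46.3-fold higher (adjusted p = 0.00584). *Saa2* had 23.8, 8.56, 154 and 1.29 against 0 to 0.976 and did not pass the filter. *Thbs4* had 118, 343, 40.1 and 697 against 31.6 to 78.6, with NP gland 3 inside the WT range (1.76, adjusted p = 0.153). Without NP gland 3 *Thbs4* was called higher (2.48, adjusted p = 0.0228). *Dhrs7c* (388, 3179, 10.8 and 2026) and *Fndc5* (139, 1310, 55.2 and 847) were called higher, and *Art5* (119, 641, 2.17 and 371) was not (3.95, adjusted p = 0.0909). *Art5* was called higher without NP gland 3 (5.59, adjusted p = 0.001). *Dhrs7c*, *Fndc5* and *Art5* were high in the order of the muscle transcripts, NP glands 2, 4, 1 and 3. With a score of the muscle genes in the model their log2 fold changes were 0.56, -1.26 and -3.48 (adjusted p = 0.472, 0.269 and 0.0153). As the score rises with the group, this fit cannot separate muscle content from group, and a cause was not tested.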

How the data were processed

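Whole mammary glands were profiled by RNA sequencing. Per the study's methods the authors aligned 75-base read pairs to GRCm38 with TopHat2 2.1.1 and Bowtie2 and normalized with DESeq2. The counting tool, annotation and strand setting are not given in the sources used here, and the labels and the methods name different library kits. The authors deposited 1 signal table of normalized counts, that is read counts divided by a size factor per library, for 46078 genes and 19 libraries. Whole reads were recovered from its steps (tolerance 0.05 reads) and gave the depths. Of the gene identifiers 45229 (98.16%) matched GENCODE vM21, which supplied symbols and positions.

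Genes with at least 10 normalized counts in at least 3 libraries of a comparison were tested with limma 3.58.1 (trend) in R 4.3.3 on log2(value + 1), in NP against WT glands, NP against N glands and N against WT glands, with Benjamini-Hochberg adjustment over all genes tested, and all adjusted p-values are from this fit unless another tool is named. edgeR 4.0.16 and DESeq2 1.42.0 on the recovered reads were alternatives, with other pseudocounts (0.5 and 5), filters, scalings, samples, a replicate block, a muscle covariate and thinned WT reads. The fit was tested on simulated data. The study calls the glands of a group biological replicates but does not state that each came from a separate mouse, so p-values measure the spread between these samples. Members and gene lists were chosen with earlier results of these data known. Named were genes of the lists, the 10 largest rises and falls among called genes without overlap, the 5 largest of each among protein-coding genes on no list, genes furthest above or below in 1 NP gland, and those most like *Ckm* or *Ucp1*. *Gm26917* was named after its values were seen.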

Additional observations from a re-analysis of the deposited data

Results flagged for a closer look

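In the NP glands, 14 of 161 named genes had 1 gland whose gap to the nearest other gland, as a share of the group's log2 range, passed Dixon's 95% critical value for 4 samples. Chance passes it in about 1 in 20 groups, and several of these genes were named because 1 gland stood apart. NP gland 1 was high for *Mpo* (0.883), *S100a8* (0.878) and *Ighg2c* (0.861). NP gland 2 was high for *Krt6a* (0.846) and *Muc13* (0.85) and low for *Prdm16* (0.841). NP gland 3 was high for *Fam71a* and *C2cd4b* (1 each), which were at 0 in the other NP glands, and for *Col1a1* (0.851). NP gland 4 was high for *S100b* (0.869), *Cd163* (0.834) and *Ebf2* (0.831) and low for *Gm22513* (0.892) and *Mfge8* (0.883).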

How the results depend on the processing

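Of NP against WT glands, the 3136 genes higher and 3081 lower stayed within 1.5 times of these counts under every alternative run except DESeq2 (4733 higher) and the muscle score as a covariate (1619 higher, 1876 lower). With any 1 library omitted, 2404 to 3321 genes were higher and 2524 to 3233 were lower. The replicate numbers do not pair the glands (correlations of same-numbered deviations -0.128, -0.037 and 0.007), and the replicate block gave 2467 higher and 2593 lower, and 0 in NP against N glands. For NP against N glands limma called 0, with 1950 genes at an unadjusted p-value under 0.05, and edgeR 0, with 2085. DESeq2 called 536 higher and 118 lower, all gland groups in 1 fit 2 and 1, NP gland 3 alone 0 and 1, and leaving out 1 library 0 to 297 higher and 0 to 21 lower, the highest without NP gland 3.

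A change of sign was counted only where either value passed the threshold. With the muscle covariate it occurred for *Kcna7* (-3.49), *Art5* (-3.48), *Cryab* (-1.33), *Abra* (-1.33), *Fndc5* (-1.26), *Ccng1* (-0.57), *mt-Co1* (-0.54), *Csrp3* (-0.38) and *Egf* (-0.02), and with NP gland 3 alone for *Tnni1* (-2.57) and *Xirp1* (-1.34). The muscle covariate itself rises with the group, and the cause of these changes of sign was not tested. Of 112 named genes called, 81 were called without each of the 7 libraries in turn, and 4 (*Myf6*, *Myl2*, *Csrp3* and *Saa1*) were not tested without 3 of the NP glands but kept the call otherwise. Beside those named above, the call was lost for *Trp53* without WT gland 1 or 3 (adjusted p up to 0.085), *S100a4* without WT gland 1 (0.0509), *Cdkn1a* without WT gland 2 or 3 (0.0586), *Saa3* and *Gm9899* without any 1 WT gland (0.11 and 0.129), *mt-Co1* without any 1 WT gland or NP gland 2 (0.0941), *Ccng1* without any 1 WT gland or NP gland 4 (0.0849), *Fndc5* without any 1 WT gland or NP gland 2 or 4 (0.121), *Cryab* without any 1 gland other than NP gland 3 (0.117), and *Srf* without NP gland 1 and *Tnxb* without WT gland 1, both by the fold. In all, 24 genes gained a call without 1 library.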
